A study of Mus musculus with 46 samples.

Results

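TRBV31 is the V segment of the mouse T cell receptor beta (TCRβ) locus that lies downstream of the constant regions. Rows of the deposited tables that name TRBV31 as the V segment were taken from all 17 libraries. They held 11639 of 153913 rearrangements, or 7.56%, and 9377 different clonotypes, a clonotype being 1 CDR3 amino acid sequence on 1 V segment. On chromosome 6 of GRCm38.p6 the segment is listed at 41557693 to 41558371 as Trbv31, with the older name Tcrb-V14. It begins 9511 bases beyond the end of TRBC2, whereas TRBV30, the nearest upstream V segment used here, ends 251210 bases before TRBD1. The label was checked by the CDR3: 11075 of 11639 TRBV31 rearrangements (95.2%) began with the residues CAW, against 10 of 142274 rearrangements of the other V segments.

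A TCRβ chain is built by joining a D to a J segment and then a V segment to the DJ unit. Upstream V segments join by deleting the DNA in between, while TRBV31 has the opposite orientation and joins by inversion. The CDR3 spans these joints, and the enzyme TdT can add bases at each of them. TRBD1 can join J segments of both clusters, and TRBD2 lies downstream of cluster 1 and joins cluster 2.

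The series compared T cells of pregnant and non-pregnant mice with experimental autoimmune encephalomyelitis (EAE), a model of multiple sclerosis, and naive mice. Wild-type C57BL/6 mice with EAE, none pregnant, gave CD8-negative T cells, with 3 libraries from central nervous system (CNS) and 3 from spleen with lymph nodes (periphery). CD4+Foxp3+ regulatory T cells (Treg) and CD4+Foxp3- conventional T cells (Tcon) were sorted from the same peripheral organs of DEREG mice, which carry a transgene of a diphtheria toxin receptor and GFP under the Foxp3 promoter. Only TCRβ DNA was measured, so the sorts could not be checked by other markers. Treg of EAE mice at embryonic day 18 (E18) formed a group of 5, and Treg of non-pregnant EAE and of non-pregnant naive mice had 1 library each. Tcon had 1 library for each combination of EAE or naive with E18 or non-pregnant. The labels list 46 samples, and 29 were not analysed here. Whether replicates came from separate mice is not stated, so p-values measure only the spread between these libraries. Nor is it stated whether Treg and Tcon of equal number, as replicate 5 of EAE E18 mice, came from 1 mouse. The fits treat them as separate. All Treg libraries carry one code in their file names and all Tcon libraries another, and the labels do not say what it marks, so cell type cannot be told apart from it. Libraries held 278420 to 571124 reads over 1698 to 19898 rearrangements.

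The sequences below show how TRBV31 begins its CDR3 and the receptors that recur or dominate. They are rearranged sequences from the deposited tables, 5′ to 3′. The first pair are the start of the TRBV31 CDR3 with its most frequent continuation in the rearrangements and with the one that the deposited V borders count, with the bases from position 14 of the CDR3 on in capitals.
TRBV31 start, most frequent continuation: tgtgcctggagtcTA
TRBV31 start by the deposited borders: tgtgcctggagtcGAC
In the others, capitals mark the bases between the V and the J segment, with D bases included. The V segment is taken to end at the deposited border, or further on where the bases match the first of the pair from their start.
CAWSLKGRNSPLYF: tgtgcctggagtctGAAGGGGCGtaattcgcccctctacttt
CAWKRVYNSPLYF: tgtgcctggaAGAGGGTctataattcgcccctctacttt
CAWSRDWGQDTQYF, in 4 libraries: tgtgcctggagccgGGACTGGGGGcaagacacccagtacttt
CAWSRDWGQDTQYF, another coding: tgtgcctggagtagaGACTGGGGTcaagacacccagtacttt
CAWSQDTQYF, in 3 libraries: tgtgcctggagtcaggacacccagtacttt
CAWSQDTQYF, another coding: tgtgcctggagtcaagacacccagtacttt

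TRBV31 was a common V segment among Tcon and less common among Treg, and its share of clonotypes was the lowest in the CNS. Among clonotypes counted once, TRBV31 made up 8.94%, 8.04%, 9.16% and 9.43% in the Tcon libraries, in the order EAE at E18, EAE without pregnancy, naive at E18, naive without pregnancy. The 5 EAE E18 Treg libraries held 5.75%, 5.77%, 6.35%, 6.23% and 6.78%, and the non-pregnant EAE and naive Treg libraries 6.98% and 7.21%. Every Treg library lay below every Tcon library, and how many other segments separated in this way was not counted. Treg averaged 6.44% ± 0.57 (SD, n = 7) and Tcon 8.89% ± 0.60 (SD, n = 4). In the order given above, the Tcon libraries held 13204, 8172, 16231 and 18776 clonotypes of all V segments, and their share rose with that number. Treg libraries held 4401 to 15167. The one with 15167 had the highest Treg share, 7.21%, below the 8.04% of the Tcon library with 8172. Whether the share goes with the number of clonotypes was not tested. On the log2 scale Treg differed by -0.44 (SE 0.08, edgeR adjusted p = 0.00338). Of the 34 segments tested, 11.8% passed in this comparison and 29.4% had an unadjusted p under 0.05. The call was lost without the naive non-pregnant Tcon library (edgeR adjusted p = 0.058) and without the naive non-pregnant Treg library (edgeR adjusted p = 0.0584). The fit rests on 3 Tcon libraries with a Treg counterpart.

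CNS libraries held 4.97%, 5.69% and 3.91% TRBV31 clonotypes and periphery libraries 6.52%, 7.91% and 7.22%. In the same order they held 2975, 2373 and 1637 clonotypes of all V segments in the CNS and 12577, 6903 and 5884 in the periphery. The part of this difference in number in the lower CNS share was not tested. The groups did not overlap, but the fitted log2 change of -0.36 (SE 0.12) missed the threshold (edgeR adjusted p = 0.0749), where 8.82% of the segments passed. For 29.4% of the 34 segments the unadjusted p was under 0.05. How many other segments did not overlap between these groups was not counted. Without TMM normalization the TRBV31 share passed, with a log2 change of -0.55 (edgeR adjusted p = 0.0266). CNS replicate 3 had the fewest TRBV31 rearrangements, 64, so the Wilson 95% interval of its share ran from 3.07% to 4.96%. The share did not pass between E18 and non-pregnant mice (log2 change -0.06, SE 0.07, edgeR adjusted p = 0.973) or between EAE and naive mice (-0.13, SE 0.08, edgeR adjusted p = 0.721), and in both 0% of the segments passed (1 and 2 at an unadjusted p under 0.05). V segments that natural killer T cells favour, which are TRBV13-2, TRBV29 and TRBV1, held 21.9% ± 1.7 of Treg clonotypes (SD, n = 7) and 22.8% ± 1.8 of Tcon clonotypes (SD, n = 4). Their summed share was 28.5% ± 3.5 of CNS clonotypes, against 24.6% ± 1.2 of those from periphery libraries (SD, n = 3 per group). The members did not move together. TRBV1 went the other way, with a mean of 5.35% for CNS libraries against 6.99% for periphery libraries. The fitted log2 changes were 0.69 for TRBV13-2, 0.04 for TRBV29 and -0.19 for TRBV1, and none passed. The part of these segments in the result was not tested.

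**Figure D1:**
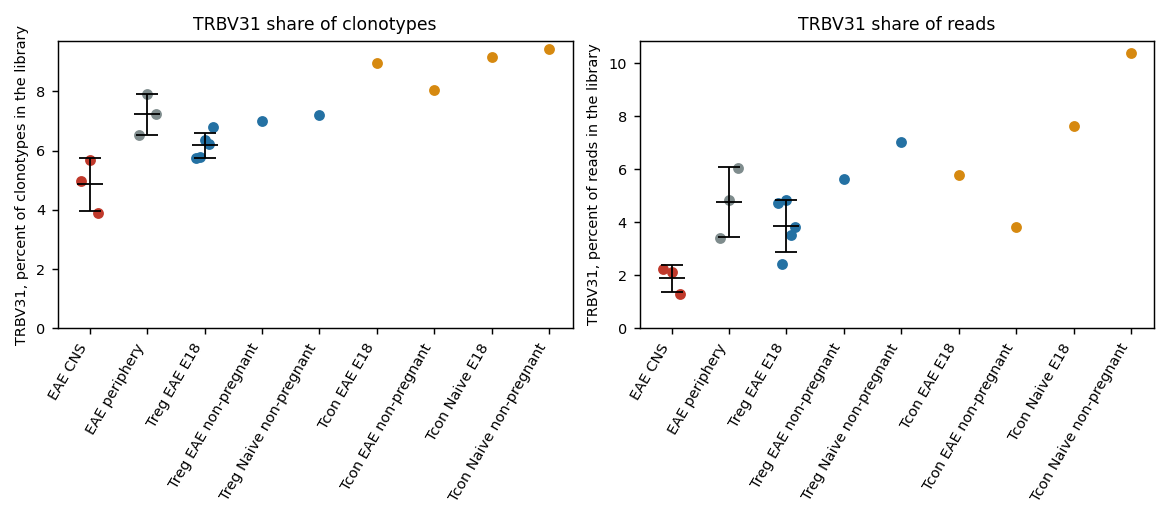
TRBV31 share of clonotypes (left) and of reads (right), in percent of the library, 1 point per library, with the mean and SD (bars) where a group has over 1 library. By clonotypes the 4 Tcon libraries sit between 8.04% and 9.43%, above the 7 Treg libraries at 5.75% to 7.21%, and by reads they overlap.

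By reads TRBV31 was more spread and nothing passed. It took 2.24%, 2.11% and 1.31% of the reads in the CNS and 3.42%, 4.86% and 6.06% in the periphery (log2 change -0.86, SE 0.53, edgeR adjusted p = 0.564). Treg libraries held 2.42% to 7.02% with a median of 4.75%, and Tcon libraries 5.80%, 3.84%, 7.64% and 10.4% (log2 change -0.30, SE 0.28, edgeR adjusted p = 0.965). The groups of Treg and Tcon overlapped by reads. In the read fits 0% of the segments passed in each of the 4 comparisons, with 1 to 4 at an unadjusted p under 0.05.

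Among 23 V segments TRBV31 ranked second by clonotypes in Tcon, level with TRBV3 (8.88% ± 0.57, SD, n = 4) and below TRBV13-2 (13.9% ± 1.6, SD, n = 4). In Treg it ranked 6, beside TRBV16 (6.42% ± 0.50, SD, n = 7), and in the CNS 10, between TRBV16 (5.34% ± 0.59, SD, n = 3) and TRBV26 (3.90% ± 0.20, SD, n = 3). TRBV1, the V segment farthest upstream, held 7.23% ± 0.34 of Tcon clonotypes (SD, n = 4), and TRBV30 0.269% ± 0.025. The V segments whose log2 clonotype share went most like that of TRBV31 over the 17 libraries were TRBV1 (Pearson r = 0.79), TRBV14 (0.74) and TRBV4 (0.71), given as a description, since shares of one library add to a fixed total. Besides TRBV31, the V segments called between Treg and Tcon were TRBV12-1 (log2 change 2.11), TRBV4 (-0.48) and TRBV19 (-0.29), and between CNS and periphery TRBV5 (0.68), TRBV20 (0.70) and TRBV17 (-0.63).

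**Figure D2:**
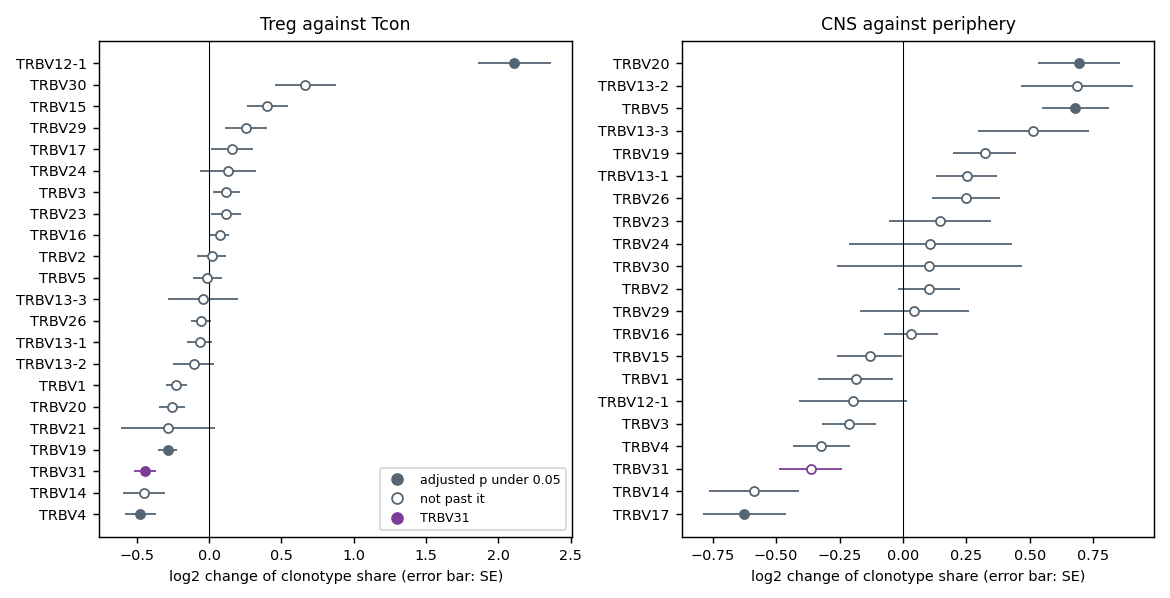
Fitted log2 change of clonotype share for each V segment between Treg and Tcon (left) and CNS and periphery (right), with SE as bars, filled where the edgeR adjusted p passed and TRBV31 in purple. TRBV31 stands at -0.44 on the left, filled, and at -0.36 on the right, open.

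TRBV31 joined both J clusters, and mostly cluster 2. Cluster 1 took 30.3% ± 4.3 of TRBV31 rearrangements and 28.1% ± 1.7 of the others (SD, n = 17 each), higher in 12 of 17 libraries. The paired difference of 2.17 percentage points missed the threshold (permutation test with signs flipped within libraries, two-sided, adjusted p = 0.0789 over 30 tests). It passed with the carry-over filter (2.34 points, permutation adjusted p = 0.0426), and weighted by reads it was 4.93 points and did not (permutation adjusted p = 0.335). By group the mean was 34.3% ± 6.2 in the CNS, 32.8% ± 4.3 in the periphery (SD, n = 3 each), with Treg at 28.0% ± 3.4 (SD, n = 7) and Tcon at 29.6% ± 1.0 (SD, n = 4). No comparison between groups passed, and after adjustment none could in these designs.

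Within the clusters the mix of J segments differed from that of the other V segments. TRBJ2-3 took 11.4% ± 2.4 of TRBV31 rearrangements against 8.47% ± 0.99 of the others (SD, n = 17 each), higher in 16 of 17 libraries. TRBJ2-7, the J segment that the other V segments used most, took 16.0% ± 3.5 against 19.4% ± 1.4, and was higher in 2 of 17 libraries. The differences of 2.93 and -3.49 percentage points passed a paired permutation test (adjusted p = 0.0009 and 0.00108 over 18 comparisons chosen after the values were seen). Weighted by reads the TRBJ2-3 difference was 1.77 points (permutation adjusted p = 0.0323). TRBJ1-6 was higher by 0.79 points (14 of 17 libraries, permutation adjusted p = 0.0257). It lost the call with at least 2 reads (permutation adjusted p = 0.137) and weighted by reads, where it was 4.05 points (permutation adjusted p = 0.0852). TRBJ1-7 was joined to TRBV31 in 5 rearrangements, with none in 13 of 17 libraries, too few to compare. In CNS libraries TRBJ2-7 took 10.5% ± 2.3 of TRBV31 rearrangements and in the periphery 14.7% ± 0.86 (SD, n = 3 each).

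**Figure D3:**
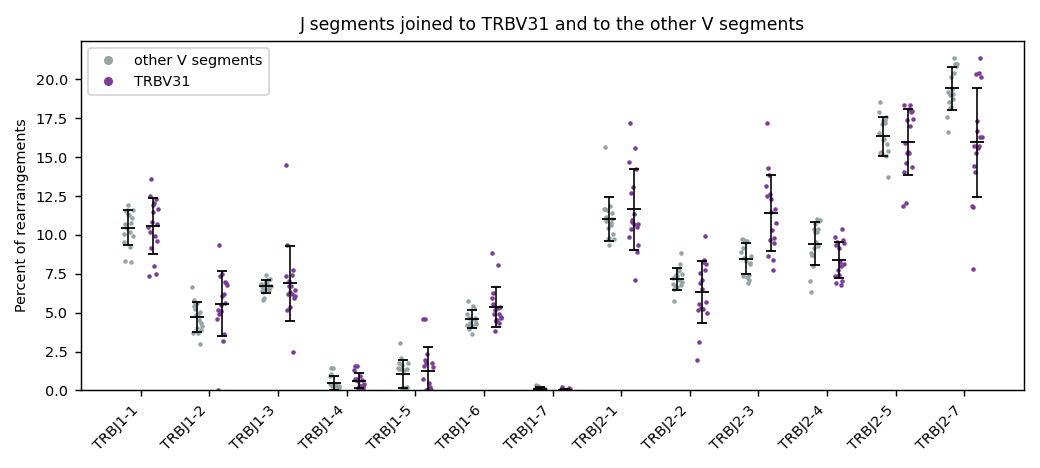
Percent of rearrangements with each J segment for TRBV31 (purple) and the other V segments (grey), 1 point per library (n = 17), with mean and SD as bars. TRBV31 stands higher at TRBJ2-3 (11.4% against 8.47%) and lower at TRBJ2-7 (16.0% against 19.4%).

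Single pairs of TRBV31 with a J segment mostly followed the segment's own direction. They split the same clonotypes, so they are not separate support for it. Between Treg and Tcon all 10 pairs tested were lower in Treg, against 44.4% of all 169 V-J pairs. Their median log2 change was -0.33 against 0.05 over all pairs, and 0 of 10 passed where 12.4% of all pairs did. At an unadjusted p under 0.05 the count was 4, against 35 of all 169 pairs (20.7%). The lowest was TRBV31 with TRBJ1-1 (log2 change -0.48, SE 0.16, edgeR adjusted p = 0.0597). Between CNS and periphery 9 of 11 pairs were lower in the CNS, against 52.6% of all 152 pairs. Of the 11, 4 had an unadjusted p under 0.05, and 0 passed, as did 0% of all 152 pairs (36 at an unadjusted p under 0.05). TRBV31 with TRBJ2-7 differed by -0.91 on the log2 scale (SE 0.25, edgeR adjusted p = 0.0806) and with TRBJ1-2 of -1.43 (SE 0.44, edgeR adjusted p = 0.0806).

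A D segment was assigned to 72.6% ± 2.3 of TRBV31 rearrangements and 72.0% ± 1.9 of the others (SD, n = 17 each, permutation adjusted p = 0.622). Of cluster 2 rearrangements with a D, TRBD2 was assigned in 61.3% ± 2.5 for TRBV31 and 56.8% ± 3.5 for the others (SD, n = 17 each), higher in 15 of 17 libraries (permutation adjusted p = 0.00153 over the 18 added comparisons). Weighted by reads the difference was 8.19 points (permutation adjusted p = 0.0018). TRBD2 was also assigned in cluster 1, which lies upstream of it, in 14.1% ± 8.0 of TRBV31 rearrangements with a D and 12.1% ± 2.1 of the others (SD, n = 17 each). The highest TRBV31 value, 37.5%, was in CNS replicate 3 and rests on few rearrangements. That library held 64 TRBV31 rearrangements, 31.25% of them in cluster 1. The share of wrong D assignments in cluster 2 was not tested.

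The number of inserted bases at the TRBV31 joints depended on where the V segment was taken to end. By the deposited borders a TRBV31 rearrangement held 3.63 ± 0.16 inserted bases and one of the others 3.06 ± 0.11 (SD, n = 17 each). The difference of 0.571 bases was present in 17 of 17 libraries (permutation adjusted p = 0.0006), and TRBV31 ranked 1 of the 21 V segments with at least 500 rearrangements. Next came TRBV29 (3.50), TRBV4 (3.40) and TRBV19 (3.32). Where a D was assigned, the V-D joint held 1.73 ± 0.12 against 1.27 ± 0.12 bases (SD, n = 17 each, permutation adjusted p = 0.00072), and the D-J joint 1.43 ± 0.13 against 1.39 ± 0.050 (permutation adjusted p = 0.137). TRBV4 also held 1.73 bases at the V-D joint, with a wider spread (SD 0.51). The first 2 sequences printed above show why the border matters. Of 10936 different TRBV31 rearrangements, 6269 (57.3%) carried the 13 bases that both share. Whatever their deposited border, 66.4% of these went on with the next base of the first sequence and 38.9% with both, against 9.40% and 2.44% for the second. The deposited border lay before position 13 in 34.9% of the 10936, at it in 47.8% and beyond it in 17.3%. At positions 10 to 15, where 1 base followed in at least 50% of rearrangements, the border and the most frequent base differed in TRBV31 and in none of the 20 other V segments compared (108 positions). Where no base reached that share they also differed elsewhere, as in TRBV4 at position 14.

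With the deposited V border kept and carried on wherever a rearrangement matched the first sequence, TRBV31 held 3.14 ± 0.15 inserted bases against 3.06 ± 0.11 (SD, n = 17 each). The difference was then 0.083 bases, higher in 13 of 17 libraries, and did not pass (permutation adjusted p = 0.25). V-D insertions became 1.25 against 1.27 (difference -0.015, permutation adjusted p = 0.775). That border keeps all bases that the deposited border counts as V, also where they differ from both sequences, as in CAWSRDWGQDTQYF above. With the first sequence alone, and borders beyond position 13 cut back to it, TRBV31 held 3.602 bases and the difference was 0.545 (permutation adjusted p = 0.0006). V-D insertions were then 1.56 against 1.27, higher in 16 of 17 libraries (permutation adjusted p = 0.0009). The excess of inserted bases at TRBV31 joints was therefore between 0.083 and 0.571 by the border used, and which border is right was not tested, since no germline sequence of TRBV31 was used here. Between groups the count of inserted bases did not pass with any of the 3 borders, and after adjustment it could not in these designs. It was 3.85 ± 0.17 in the CNS and 3.59 ± 0.20 in the periphery by the deposited borders (SD, n = 3 each, exact permutation p = 0.2, adjusted p = 0.536).

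The CDR3 of TRBV31 was shorter than that of the other V segments pooled, though not the shortest, at rank 18 of 21 from the longest. TRBV30 (12.81), TRBV20 (13.05) and TRBV15 (13.43) had shorter means in amino acids. TRBV31 measured 13.59 ± 0.099 amino acids against 13.87 ± 0.097 (SD, n = 17 each), a difference of -0.284 and lower in 17 of 17 libraries (permutation adjusted p = 0.0006). The difference was -0.293 with the others set to the J usage of TRBV31, and weighted by reads it was -0.134 and did not pass (permutation adjusted p = 0.25). By length, 7.48% ± 1.6 of TRBV31 rearrangements had at most 11 residues against 5.15% ± 0.54, and 6.56% ± 1.4 had at least 16 against 10.6% ± 1.3 (SD, n = 17 each). Length did not pass between groups, where after adjustment these designs allow no call. Treg stood at 13.55 ± 0.098 (SD, n = 7) and Tcon at 13.62 ± 0.025 (SD, n = 4).

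At the start of the loop, 76.7% ± 2.8 of TRBV31 rearrangements read CAWS and 39.9% ± 3.3 CAWSL (SD, n = 17). The residue at position 5 was leucine in 43.96% and proline in 14.8% of all TRBV31 rearrangements. At positions 6 and 7, where hydrophobic residues have been linked to self-reactivity in mice, 27.6% ± 2.7 of TRBV31 and 26.8% ± 1.8 of other rearrangements held at least 1 of F, I, L, M, V, W, Y and C (SD, n = 17 each, permutation adjusted p = 0.45). Treg libraries held 27.4% to 32.3% by this measure with a median of 28.7%, and the Tcon libraries 25.9%, 23.4%, 23.4% and 25.2%. Every Treg library lay above every Tcon library. Within matched conditions the difference was 3.70 percentage points (exact permutation p = 0.0417, the smallest this design allows, adjusted p = 0.25). The other V segments went the same way, with Treg at 28.2% ± 0.36 (SD, n = 7) and Tcon at 24.4% ± 0.62 (SD, n = 4). The TRBV31 difference was -0.247 percentage points relative to theirs (exact permutation p = 0.917, adjusted p = 0.951 over 28 added tests).

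**Figure D4:**
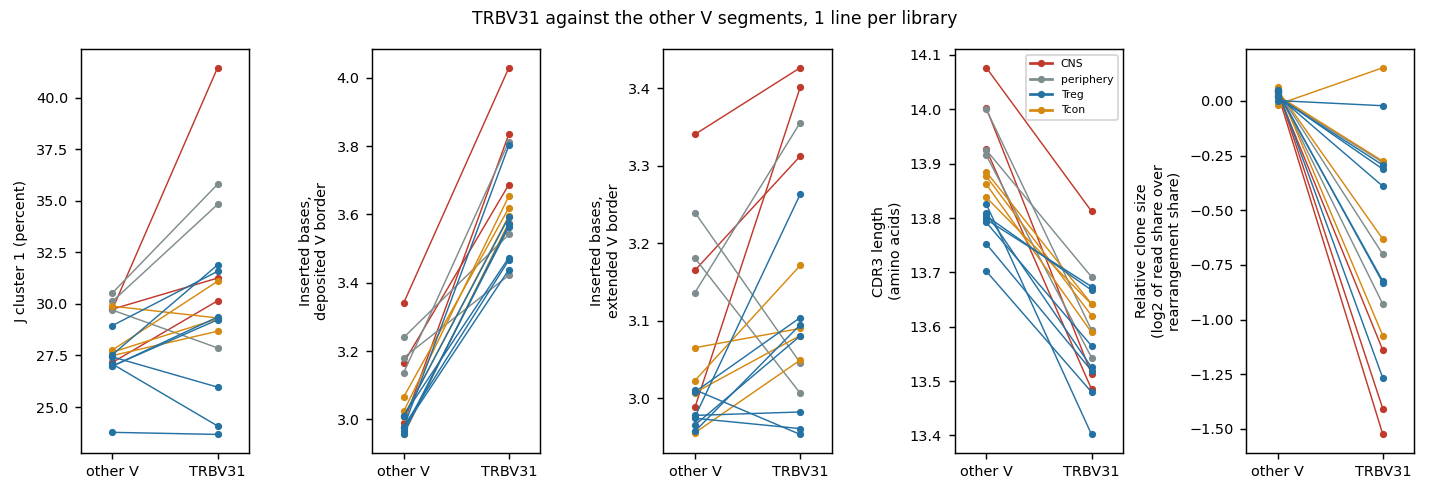
TRBV31 against the other V segments pooled in the same library, 1 line per library coloured by cell type, for the cluster 1 share (percent), inserted bases with the deposited and with the extended V border, CDR3 length (amino acids) and relative clone size (log2). All 17 lines rise for inserted bases by the deposited border and 13 with the extended one, and all 17 fall for CDR3 length. The extended border keeps the deposited one and adds matches to the most frequent continuation.

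TRBV31 took a smaller share of the reads than of the rearrangements, while the reads of its median rearrangement were not lower throughout. Relative clone size, the share of reads over the share of rearrangements, was a ratio of 0.653 ± 0.22 for TRBV31 and 1.02 ± 0.015 for the others (SD, n = 17 each). On the log2 scale the difference was -0.73, lower in 16 of 17 libraries (permutation adjusted p = 0.001). The exception was the naive non-pregnant Tcon library, with a log2 value of 0.15. Against the median V segment rather than the pool the difference was -0.40 (permutation adjusted p = 0.0254), and without the 10 largest rearrangements of each library it was -0.54 (permutation adjusted p = 0.001). TRBV31 ranked 14 of 21 V segments by this measure. The reads come from multiplex PCR without molecular identifiers, so the yield of the TRBV31 primer and the size of clones cannot be told apart.

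The CNS libraries had log2 relative clone sizes of -1.14, -1.41 and -1.53, which included 2 of the 3 lowest of all libraries, and the periphery had -0.93, -0.70 and -0.28. These groups did not overlap, and how many other V segments separated in this way by relative clone size was not counted. The difference of -0.72 between CNS and periphery gave an exact permutation p of 0.1, the smallest possible (adjusted p = 0.429). Without the 10 largest rearrangements it was -0.20. Treg libraries ranged from -1.27 to -0.02, with a median of -0.39, and Tcon libraries had -0.63, -1.07, -0.28 and 0.15, which overlapped. The median reads of a TRBV31 rearrangement were 2 to 24.5 per library against 1 to 24 in the others, and higher than theirs in 7 libraries, equal in 3 and lower in 7. Rearrangements with 1 read made up 28.2% ± 10.3 of TRBV31 against 30.7% ± 11.8 (SD, n = 17 each), higher in 4 of 17 libraries (permutation adjusted p = 0.0323). Of the 100 largest clonotypes of a library, TRBV31 supplied 0 to 11, with a median of 2, and the 11 were in the naive non-pregnant Tcon library.

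Single TRBV31 clones were large in a few libraries. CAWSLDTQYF of 10 residues with TRBJ2-5 took 1.06% of the reads of EAE E18 Treg replicate 1 (Wilson 95% interval 1.03% to 1.09%), which was 22.4% of its TRBV31 reads. The same clonotype held 0.0361% in Tcon of non-pregnant EAE mice. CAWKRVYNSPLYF with TRBJ1-6 took 0.594% of the reads of EAE E18 Treg replicate 2 (0.571% to 0.619%). The leading TRBV31 clonotype in Treg of non-pregnant EAE mice, also with TRBJ1-6, held 0.547% (0.525% to 0.570%). That of CNS replicate 1, with TRBJ1-6 as well, held 0.470% there and 0.0287% in periphery replicate 2. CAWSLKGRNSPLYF, the largest clonotype of any V segment in periphery replicate 3, held 0.358% there (0.339% to 0.377%). The leading TRBV31 clonotypes of the 17 libraries ranged from 0.0306% (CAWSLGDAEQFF in periphery replicate 1) to 1.06%. The intervals cover counting error only.

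Some TRBV31 receptors recurred between libraries, in shares close to those of the other V segments. Of TRBV31 clonotypes 12.1% (1136 of 9377) were in at least 2 libraries, and of other clonotypes 12.9%. After leaving out rearrangements with under 1% of the reads they had in their richest library, a guard against carry-over, the shares were 11.5% and 11.3%. The filter removed 0% to 14.5% of TRBV31 rearrangements, the most in CNS replicate 1. The most widespread was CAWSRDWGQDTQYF in 10 libraries (5 Treg, 2 Tcon, 1 CNS and 2 periphery), encoded by 9 nucleotide sequences, 2 of which are printed above. Some of its sequences, and some of the clonotypes named next, rest on 1 read. PCR and sequencing errors were not filtered out here, so the numbers of sequences may include them. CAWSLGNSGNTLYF and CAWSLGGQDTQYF were each in 9 libraries with 7 sequences, and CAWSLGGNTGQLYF in 7 with 5. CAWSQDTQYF was in 7 libraries with 4 sequences, at 0.182%, 0.102% and 0.180% in EAE E18 Treg replicates 1, 2 and 4 and at 0.0268% or less in the others. Those 3 libraries shared the first of its printed sequences, and after the carry-over filter no other library held it.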

How the data were processed

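TCRβ rearrangements were amplified from genomic DNA with primers for all V and J segments, per the labels' protocols. The deposited tables give a read count per CDR3 nucleotide sequence, not normalized, with its fraction of the library's reads, the V, D and J segments and the segment borders. The submitters' processing notes name mm10, and the program that assigned segments is not given in the sources used here. Rows with a stop codon or out of frame numbered 0. Segment positions are RefSeq's for GRCm38.p6, the build also called mm10, and all 36 V and J segments matched.

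Clonotypes counted once, and reads, were tested per segment with edgeR 4.0.16 in R 4.3.3 (TMM, quasi-likelihood test, two-sided, mean of at least 10). The V fit and the J fit were separate, with 1 Benjamini-Hochberg adjustment over both at 0.05, and V-J pairs were fitted on their own. Treg and Tcon were compared with the combined immunization and gestational state as a term, E18 and EAE effects with cell type and the other factor as terms, and CNS and periphery with no term. Single-library groups were assumed to vary like the others. Inserted bases are those between segment borders. The 6 measures per library were compared between groups by exact permutation within strata, and with the other V segments of the same library by sign flips (100000 resamples), adjusted over 30 tests. The designs allow a smallest p of 0.0417 for the cell type and the pregnancy comparison, 0.1 for CNS against periphery and 0.25 for EAE against naive. After adjustment over 30 tests no group comparison of the 6 measures could pass 0.05, whatever the values. That none passed therefore does not show that the groups were alike. Python 3.11.15 with scipy 1.17.1 was used, and the code was tested on simulated data. DESeq2 1.42.0, no TMM, no filter, at least 2 reads, a carry-over filter, other weightings and leaving out each library were tried as alternatives.

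Members and lists were chosen with earlier results of these data known. Named items were TRBV31, its J segments, TRBV1, TRBV30, the 3 V segments most like it, its neighbours in rank, its top clonotype per library, its 5 most widespread clonotypes and every segment called.

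The extended V border was added after the inserted bases had been seen. It counts a base as V while it is the most frequent continuation, with a share of at least 50%, and, from position 13, exceeds its share after a broken start by 30 percentage points. The rule tried first asked for this excess from 1 position earlier and was replaced after its result had been seen. Both rules gave TRBV31 a 15-base start and the same difference, 0.083 bases. A border by 1 continuation, with TRBV31 borders beyond position 13 cut back first, was added after those values had been seen. It leaves D borders as deposited, so bases cut from V count as inserted.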

Additional observations from a re-analysis of the deposited data

Results flagged for a closer look

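In 5 cases TRBV31 moved one way in the EAE E18 Treg libraries and the opposite way in a condition with 1 library on each side, and none of these differences was tested. Conditions with 1 library on each side were not set against each other. The TRBV31 share of clonotypes was 0.897 percentage points higher at E18 than in non-pregnant mice in EAE Tcon and fell by 0.806 in EAE Treg, in 5 of 5 libraries. Its share of reads was 1.96 points higher at E18 in EAE Tcon and fell by 1.77 in EAE Treg. Between Treg and Tcon the share of reads differed by -1.93 points in EAE E18 mice and by 1.81 in non-pregnant EAE mice. CDR3 length differed by -0.021 amino acids between E18 and non-pregnant mice in EAE Tcon and by 0.179 in EAE Treg. The share with a D assigned differed by -1.77 points in naive Tcon and by 4.73 in EAE Treg. In the comparisons of E18 with non-pregnant mice, the Treg values at E18 all stand against 1 non-pregnant EAE Treg library. In that of Treg with Tcon they stand against 1 EAE E18 Tcon library. Of 9 measures tested for an outlying library in the EAE E18 Treg group, 0 had one.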

How the results depend on the processing

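Of 729 alternative values for 48 results, 654 were classed as unchanged. This meant the same direction and side of the threshold, or for TRBV31-J pairs the same number called. Group comparisons of the measures per library could not pass the threshold whatever the values, so for them only the direction could change. The 654 is therefore not a count of calls that held. The cause was not tested for the other values, except where the alternative's construction shows it. With the V border extended, the excess of inserted bases was 0.083 under both rules tried, and that of V-D bases -0.015. By 1 continuation the excess was 0.545, while inserted bases differed by 0.011 between Treg and Tcon and by -0.0019 for E18. The lower TRBV31 share in Treg ranged from -0.51 to -0.37 on the log2 scale when 1 library was left out, and was lost without either naive non-pregnant library. The CNS share passed without TMM at -0.55. TRBV31-J pairs called between Treg and Tcon numbered 2 without TMM, 1 with no filter, 1 with at least 2 reads, 2 by nucleotide rearrangements and 0 to 3 with 1 library left out. Between CNS and periphery they numbered 2 with no filter and 1 with at least 2 reads, and between E18 and non-pregnant mice 1 with no filter. The labels do not say that equal CNS and periphery numbers mark 1 mouse, so they were not taken as pairs. In the V segment shares, equal numbers correlated at -0.15, 0.34 and 0.47 and unequal numbers at -0.55 to 0.20. Whether they are pairs was not tested. With the replicate number as a block, 3 pairs were called, the clonotype share stayed at -0.36 (edgeR adjusted p = 0.0507), and no other call changed. The cluster 1 share against other V segments was 2.34 with the carry-over filter and 1.58 to 2.50 with 1 library left out. The read share for E18 was 0.014 with DESeq2. Weighted by reads, the cluster 1 share was 4.93 against other V segments and 13.4 between CNS and periphery (exact permutation adjusted p = 0.5625), the CDR3 length difference from other V segments was -0.134, the E18 cluster 1 difference 0.490, the EAE inserted base difference -0.092, the D share against other V segments -0.211 and for E18 -3.40. CDR3 length between CNS and periphery was 0.115 with at least 2 reads, 0.0022 with the carry-over filter and 0.2998 weighted by reads. It was -0.098 for E18 weighted by reads, and for EAE 0.011 with at least 2 reads and 0.075 weighted by reads. Inserted bases between Treg and Tcon were 0.052 with a D assigned. Leaving out 1 library gave these ranges across 0 for results that did not pass. CDR3 length ran from -0.110 to 0.053 (CNS) and -0.072 to 0.015 (EAE). The D share ran from -2.60 to 2.58 (CNS), -0.579 to 2.67 (E18) and -1.10 to 2.28 (EAE). The cluster 1 share ran from -2.13 to 3.52 (CNS) and -0.830 to 0.265 (Treg). The hydrophobic share ran from -0.449 to 2.76 (CNS), -0.249 to 1.94 (E18) and -0.413 to 1.78 (EAE). Inserted bases ran from -0.027 to 0.050 (EAE), log2 clone size from -0.42 to 0.016 (E18) and -0.13 to 0.34 (Treg), and the log2 read share from -0.29 to 0.092 (E18). With 64 to 152 TRBV31 rearrangements, the CNS libraries have the widest counting intervals.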
